A study of Homo sapiens with 4 samples.

Results

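The genes described here encode the SR splicing proteins SRSF1, SRSF2, SRSF3, SRSF4, SRSF5, SRSF6, SRSF7 and SRSF10 and the SR-like proteins TRA2A and TRA2B. Other SR family genes, SRSF9 among them, are not in this set and are described further below. They were taken by name from the deposited tables, 10 of 57773 genes in all, and were chosen by their exon, intron and exon-exon reads in wogonin 3 and 4 against DMSO 1 and 2. Their differences are therefore described with fold changes and standard errors. Counts of them past the threshold of a fit over all genes, or without overlap between the groups, stand beside the share of all genes. Such counts are a description and no test of these genes, since the same reads chose them. The RNA came from A2780 cells, a long-established ovarian cancer line of human origin, labelled WT in genotype. The groups were cells given wogonin, a plant flavone, at 10 ug/mL for 48 h (2 libraries, numbered 3 and 4), and cells given its vehicle DMSO, with no time stated (2 libraries, numbered 1 and 2). The study's question, per its title and design text, is whether wogonin acts on ovarian cancer through DNA demethylation along an axis of AMPK, TET2 and hydroxymethylcytosine. Libraries of a group are not said to come from separate cultures, so every error and p-value reflects variation between libraries, which may be technical.

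SR proteins bind short enhancer sequences in exons through an RNA recognition motif and recruit the spliceosome through a tail rich in arginine and serine repeats. CLK and SRPK kinases phosphorylate that tail and so set where the proteins sit in the nucleus and how active they are. Many SR genes regulate themselves: the protein promotes inclusion of a poison exon in its own transcript, which then carries an early stop codon and is removed by nonsense-mediated decay. Each deposited table counts reads in exons, reads in introns and, within the exon reads, those that cross an exon-exon junction, which come from spliced RNA. Counts are per gene, so inclusion of a single exon was not measured.

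The libraries held 11005921 and 11287570 exon reads in wogonin 3 and 4, and 11478731 and 11839562 in DMSO 1 and 2. At these depths 3 reads, the limit used here for a count of 0, were worth between 0.253 and 0.273 CPM (read counts scaled to a common library total). Wogonin 3 stood apart in its intron reads: of all reads in genes with listed exons, 7.96% were intronic in that library (95% Wilson interval 7.95 to 7.98%), against 5.61% in wogonin 4, 5.26% in DMSO 1 and 5.29% in DMSO 2. All 8 epithelial and ovarian carcinoma markers looked at were at or under 1.26 TPM (the deposited level per exon length) in every library, with EPCAM at 0.591 and 0.277 TPM in wogonin 3 and 4, against 1.14 and 1.26 TPM in DMSO 1 and 2, and MUC16 at 0. Of 4 mesenchymal markers looked at, the filament gene VIM stood at 7567 and 7648 TPM in the wogonin libraries, against 8754 and 8040 TPM in the DMSO libraries. CDH2 stood at 65.37 and 64.25 TPM, against 82.23 and 83.59 TPM. The other markers of this list were low, with COL1A1 at 2.879 and 2.909 TPM, against 5.562 and 4.595 TPM. DCN was at 0.5522 and 0.6033 TPM, against 0.8445 and 1.003 TPM. The epithelial markers of the labelled type, ovarian adenocarcinoma, were thus near 0. Of 4 leukocyte markers 3 were at 0 in all libraries and CD14 was at most 0.592 TPM, and the 2 endothelial markers matched were at 0.

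SRSF3 and SRSF7, 2 small SR proteins that also act as adaptors for mRNA export, had the lowest exon reads relative to the vehicle. SRSF3 (ENSG00000112081, chromosome 6, 36562145 to 36573377 on the plus strand, GRCh37) had 1867 and 1937 exon reads in wogonin 3 and 4, against 4868 and 5785 in DMSO 1 and 2. The deposited level was 131 and 128 TPM in the wogonin libraries, against 331 and 386 TPM in the DMSO libraries. Both wogonin libraries lay below both DMSO libraries, and the log2 fold change of exon reads was -1.33 ± 0.07 (SE, edgeR, wogonin over DMSO). SRSF7 (ENSG00000115875, chromosome 2, 38970741 to 38978636, minus strand) had 718 and 864 exon reads in the wogonin libraries, against 1659 and 2006 in the DMSO libraries. That is a level of 66.0 and 74.4 TPM, against 147 and 175 TPM, and a log2 fold change of -1.05 ± 0.10 (SE). TPM ratios carry a shift of their own, since the median gene with at least 10 mean exon reads had a wogonin to DMSO ratio of 0.906 in TPM (-0.14 on the log2 scale). The fold changes given here are from counts scaled by TMM (trimmed mean of M values) factors, where the median over all 13449 genes tested was -0.00066.

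The promoters of SRSF3 and SRSF7, at the low end, and of SRSF4, which was not lower, are printed to set the start regions of genes with different values side by side. They run from 250 bases before to 50 bases after the RefSeq start on GRCh38.p14, a newer build than that of the count tables. SRSF3 lies at chr6:36594112-36594411 on the plus strand, SRSF7 at chr2:38751445-38751744 on the minus strand and SRSF4 at chr1:29181851-29182150 on the minus strand. Capitals mark matches on either strand to a CCAAT box (CCAAT), a GC box (GGGCGG), an ETS site (CCGGAAG) or a TATA box (TATAAA).
SRSF3: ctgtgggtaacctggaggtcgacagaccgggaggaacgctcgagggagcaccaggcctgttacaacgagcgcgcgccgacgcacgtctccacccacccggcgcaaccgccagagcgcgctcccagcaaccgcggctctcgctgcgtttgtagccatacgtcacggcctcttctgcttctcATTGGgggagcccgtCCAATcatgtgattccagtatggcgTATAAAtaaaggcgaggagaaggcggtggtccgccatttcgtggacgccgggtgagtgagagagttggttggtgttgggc
SRSF7: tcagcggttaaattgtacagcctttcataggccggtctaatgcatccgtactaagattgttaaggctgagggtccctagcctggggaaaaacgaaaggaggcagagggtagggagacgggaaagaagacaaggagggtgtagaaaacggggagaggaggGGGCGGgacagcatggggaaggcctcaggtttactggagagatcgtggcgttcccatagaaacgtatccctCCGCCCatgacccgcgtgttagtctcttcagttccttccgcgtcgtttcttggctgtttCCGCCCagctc
SRSF4: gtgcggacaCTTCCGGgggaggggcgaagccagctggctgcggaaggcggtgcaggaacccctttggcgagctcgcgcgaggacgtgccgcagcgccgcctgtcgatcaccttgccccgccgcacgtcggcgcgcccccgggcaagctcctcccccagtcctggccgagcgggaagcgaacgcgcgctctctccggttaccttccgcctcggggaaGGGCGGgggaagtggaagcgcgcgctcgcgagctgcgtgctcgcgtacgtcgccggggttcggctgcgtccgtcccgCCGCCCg
The SRSF3 window was the only 1 of the 8 available windows of these genes with a TATA box or a CCAAT box, which 11.5% and 34.6% of all 35097 RefSeq promoters hold. GC boxes stood in the windows of SRSF4, SRSF6, SRSF7 and TRA2B, against 44.9% of all promoters, and the ETS letters in those of SRSF4 and SRSF5, against 10.3%. No match was found in any of the 8 windows for an E-box (CACGTG, in 7.25% of all promoters), the YY1 letters AAGATGGC (2.89%), a CRE (TGACGTCA, 1.85%), the NRF1 motif (1.24%) or the E2F letters TTTCGCGC (0.516%). These windows held a median of 30 CpG dinucleotides, against 14 over all promoters, with 17 in SRSF7 and 48 in SRSF4. A match or its absence describes the letters of the window only, and methylation was not measured in these libraries.

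The transformer-2 homologues TRA2A and TRA2B, which bind purine-rich exonic enhancers, were also lower. TRA2A (ENSG00000164548, chromosome 7, 23544399 to 23571660, minus strand) had 699 and 763 exon reads in wogonin 3 and 4, against 1083 and 1200 in DMSO 1 and 2, with levels of 73.9 and 75.6 TPM, against 111 and 120.3 TPM. Its log2 fold change was -0.49 ± 0.08 (SE). TRA2B (ENSG00000136527, chromosome 3, 185633694 to 185655924, minus strand) had 1463 and 1590 exon reads in the wogonin libraries, against 2223 and 2320 in the DMSO libraries, with levels of 46.2 and 47.1 TPM, against 67.9 and 69.5 TPM. The paralogues thus had similar values, with -0.42 ± 0.06 (SE) for TRA2B, and in neither did the groups overlap.

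SRSF6, SRSF2 and SRSF1 lay in the same range. SRSF6 (ENSG00000124193, chromosome 20, 42086568 to 42092245, plus strand), an enhancer-binding SR protein, had 1163 and 1367 exon reads in the wogonin libraries, against 1906 and 1922 in the DMSO libraries, a log2 fold change of -0.44 ± 0.07 (SE). SRSF2, the speckle protein also known as SC35 (ENSG00000161547, chromosome 17, 74730197 to 74733456, minus strand), had 1753 and 1895 exon reads, against 2761 and 2659, a log2 fold change of -0.41 ± 0.06 (SE). SRSF1, the founding family member (ENSG00000136450, chromosome 17, 56080721 to 56084707, minus strand), had 1929 and 2187 exon reads in the wogonin libraries, against 2850 and 2913 in the DMSO libraries, a log2 fold change of -0.33 ± 0.06 (SE). In all 3 genes both wogonin libraries lay below both DMSO libraries.

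SRSF4, SRSF5 and SRSF10 had small differences. SRSF4, which carries a long arginine-serine tail (ENSG00000116350, chromosome 1, 29474255 to 29508499, minus strand), had 1364 and 1373 exon reads in the wogonin libraries, against 1400 and 1424 in the DMSO libraries, with levels of 158 and 149 TPM, against 157 and 156 TPM. After scaling the wogonin libraries were the higher ones, at a log2 fold change of 0.11 ± 0.06 (SE), which was 0.02 with library totals alone. SRSF5 (ENSG00000100650, chromosome 14, 70193617 to 70238722, plus strand) had 1085 and 1278 exon reads in the wogonin libraries, against 1425 and 1346 in the DMSO libraries, a log2 fold change of -0.07 ± 0.08 (SE). The raw counts do not overlap, but after scaling they did, with 101 and 118 CPM in the wogonin libraries, against 121 and 109.8 CPM in the DMSO libraries. The fold change was 0.04 without wogonin 3. SRSF10, which represses splicing when it loses its phosphates after heat shock (ENSG00000188529, chromosome 1, 24291294 to 24307417, minus strand), had 1389 and 1518 exon reads in the wogonin libraries, against 1570 and 1825 in the DMSO libraries, a log2 fold change of -0.07 ± 0.07 (SE). Its scaled counts also overlapped where the raw ones do not, with 129.6 and 139.9 CPM in the wogonin libraries, against 133 and 149 CPM in the DMSO libraries. The fold change was 0.01 without DMSO 2.

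**Figure D1:**
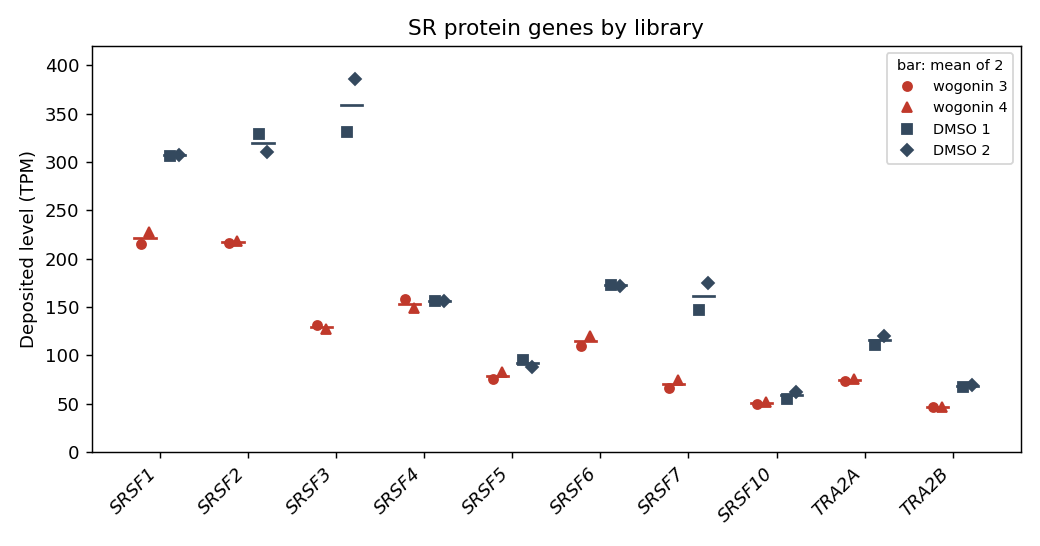
Deposited level in TPM (vertical axis) of each SR protein gene in the libraries wogonin 3 and 4 (red) and DMSO 1 and 2 (dark), with a bar at the mean of each group of 2. SRSF3 stands at 131 and 128 TPM in the wogonin libraries, against 331 and 386 TPM in the DMSO libraries, while the points of SRSF4 lie between 149 and 158 TPM in all 4.

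In exon reads all 10 genes passed the filter on low counts, and 7 of them lay past the threshold of the fit over all genes (edgeR, adjusted p of 0.05) on the lower side and none on the higher side. Over all 13449 genes 31.5% were called lower, 32.3% higher and 63.8% either way. After scaling, the wogonin libraries lay wholly below the DMSO libraries in the same 7 genes and wholly above in SRSF4, against 40.9% and 41% of all genes (81.9% either way). The contrast was used in choosing the genes, so nothing is read from these counts. The median log2 fold change of the 10 genes was -0.42, and -0.51 with library totals alone, a scaling under which the median over all genes was -0.09.

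The differences were unequal, and the order of the genes by level differed between the groups. In the wogonin libraries the order by mean TPM was SRSF1 (221 ± 9.39), SRSF2 (217 ± 1.90), SRSF4 (153 ± 6.40), SRSF3 (130 ± 2.63), SRSF6 (115 ± 7.81), SRSF5 (79.2 ± 5.49), TRA2A (74.8 ± 1.17), SRSF7 (70.2 ± 5.93), SRSF10 (50.9 ± 0.837) and TRA2B (46.6 ± 0.584; SD, n = 2 each). In the DMSO libraries it was SRSF3 (359 ± 38.8), SRSF2 (319.7 ± 12.8), SRSF1 (307 ± 0.590), SRSF6 (172 ± 1.31), SRSF7 (161 ± 19.4), SRSF4 (156 ± 0.238), TRA2A (115 ± 6.81), SRSF5 (92.1 ± 4.96), TRA2B (68.7 ± 1.14) and SRSF10 (58.7 ± 5.45; SD, n = 2 each). SRSF3 ranked 4 in wogonin and 1 in DMSO, and SRSF7 ranked 8 in wogonin and 5 in DMSO. Ranges of neighbours overlapped between SRSF1 and SRSF2, between SRSF5 and TRA2A and between TRA2A and SRSF7 in wogonin, and among SRSF6, SRSF7 and SRSF4 in DMSO. The summed level of the 10 genes was 1142 and 1176 TPM in wogonin 3 and 4, against 1773 and 1848 TPM in DMSO 1 and 2. In bulk RNA, fewer cells with a transcript and less of it per cell cannot be told apart.

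Exon-exon reads, which come from spliced transcripts, were also lower in SRSF7 and SRSF3. SRSF7 had 454 and 535 exon-exon reads in the wogonin libraries, against 1022 and 1283 in the DMSO libraries, a log2 fold change of -1.06 ± 0.10 (SE). SRSF3 had 769 and 721, against 1604 and 1805, a log2 fold change of -1.04 ± 0.07 (SE). SRSF2 (-0.53 ± 0.09), TRA2B (-0.49 ± 0.07), TRA2A (-0.47 ± 0.09), SRSF6 (-0.43 ± 0.10) and SRSF1 (-0.31 ± 0.12; SE, log2 fold changes of exon-exon reads) followed. On the lower side 7 of 10 lay past the threshold and on the higher side none, again from reads used in the choice, against 28% lower and 27.6% higher of all 11251 genes tested (55.7% either way). Scaled counts did not overlap in 8 genes, these 7 and SRSF5, all with wogonin lower, against 39.2% lower of all genes (77.5% either way). The value of SRSF1 was -0.12 without DMSO 1, -0.26 without wogonin 3 and -0.31 by DESeq2, and that of SRSF6 was -0.24 without wogonin 3, and none of these was past the threshold. SRSF5, at -0.18 ± 0.08 (SE), was not past it, but was with library totals alone (-0.26) and with a minimum mean of 10 counts (-0.18). The value of SRSF5 was -0.25 without DMSO 2 and -0.23 without wogonin 4.

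In SRSF3 the exon-exon reads were less reduced than the exon reads that cross no junction. Exon-exon reads made up 41.2% of its exon reads in wogonin 3 (95% Wilson interval 39.0 to 43.4%) and 37.2% in wogonin 4 (35.1 to 39.4%), against 33.0% (31.6 to 34.3%) in DMSO 1 and 31.2% (30.0 to 32.4%) in DMSO 2. The difference between exon-exon reads and other exon reads in their log2 fold change was 0.49 ± 0.08 (SE). Of the 10 genes SRSF3 alone lay past the threshold on the higher side and none on the lower side, a description of reads used in the choice, against 1.19% higher and 2.85% lower of the 10915 genes tested (4.04% either way). SRSF5 lay on the other side, with 70.8% and 67.4% exon-exon reads in the wogonin libraries, against 74.9% and 73.7% in the DMSO libraries. Its difference was -0.34 ± 0.10 (SE), not past the threshold in the fit reported. It was past the threshold with library totals alone (-0.37), with no filter (-0.33) and in uniquely placed reads (-0.35). The groups also did not overlap, with lower shares in wogonin, in SRSF2 and TRA2B, so that 1 gene was higher and 3 were lower without overlap, against 15.9% and 27.9% of the genes with a share in every library (43.8% either way). In the other genes the shares overlapped. Between genes the shares ran from those of SRSF5, the highest in every library, down to 13.7% and 13.0% in the wogonin libraries for SRSF1, against 14.8% and 11.6% in the DMSO libraries.

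**Figure D2:**
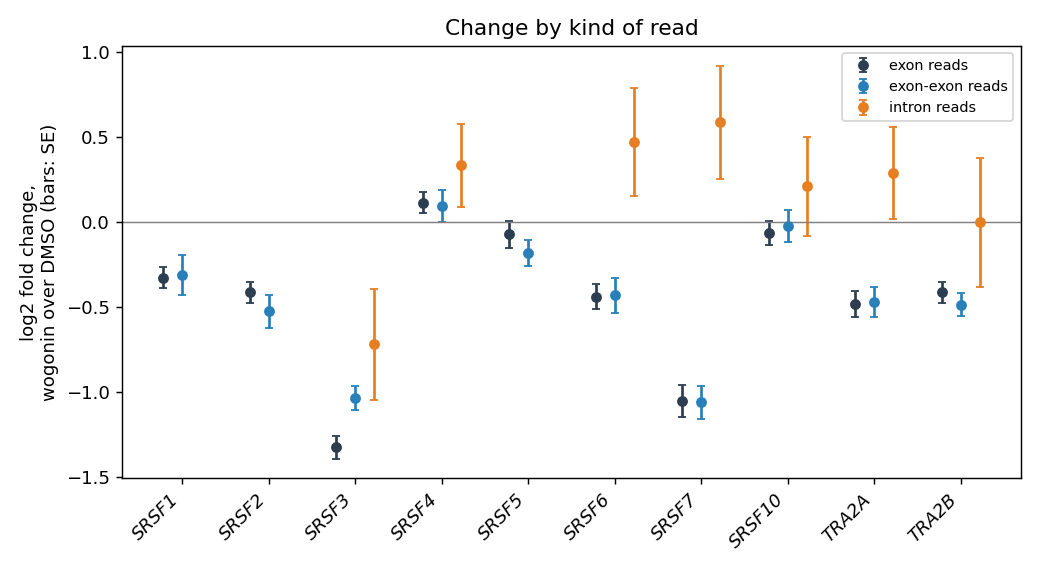
Log2 fold change, wogonin over DMSO (vertical axis), of exon reads (dark), exon-exon reads (blue) and intron reads (orange) for each gene, with bars for the standard error from edgeR over 2 libraries a group. SRSF3 shows -1.33 in exon reads and -1.04 in exon-exon reads, and SRSF7 shows -1.05 in exon reads beside 0.58 in intron reads; SRSF1, SRSF2 and SRSF5 had too few intron reads for a value.

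Intron reads differed from gene to gene in whether they lay on the same side as the exon reads. SRSF7 had 49 and 43 intron reads in wogonin 3 and 4, against 27 and 23 in DMSO 1 and 2, while its exon reads were lower. Its introns took 6.39% of the gene's reads in wogonin 3 (95% Wilson interval 4.87 to 8.35%) and 4.74% in wogonin 4 (3.54 to 6.33%), against 1.60% (1.10 to 2.32%) in DMSO 1 and 1.13% (0.757 to 1.70%) in DMSO 2. Relative to exon reads, the log2 fold change of SRSF7 intron reads was 1.70 ± 0.34 (SE). Of the 7 genes with enough intron reads, SRSF7 alone (1 of 7) lay past the threshold on the higher side, again as a description, against 6.42% higher and 4.15% lower of all 9475 genes tested (10.6% either way), and it was not past it without DMSO 2 (1.45). Intron counts were scaled within the intron reads of each library in this comparison. On that scale SRSF7 stood at 52.5 and 68.2 CPM of intron reads in wogonin 3 and 4, against 43.7 and 36.1 CPM in DMSO 1 and 2.

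SRSF6 had 75 and 89 intron reads in the wogonin libraries, against 51 and 48 in the DMSO libraries, and its intron share was 6.06% (95% Wilson interval 4.86 to 7.53%) and 6.11% (4.99 to 7.46%), against 2.61% (1.99 to 3.41%) and 2.44% (1.84 to 3.22%). Scaled within intron reads, SRSF6 stood at 80.4 CPM in wogonin 3 and 141 CPM in wogonin 4, against 82.6 and 75.3 CPM in the DMSO libraries, so that on this scale wogonin 3 lay among the DMSO libraries. The log2 fold change relative to exon reads was 0.94 ± 0.30 (SE), with 1.26 without wogonin 3 and 0.57 without wogonin 4. SRSF3 had 37 and 39 intron reads in the wogonin libraries, against 56 and 47 in the DMSO libraries, with shares of 1.94% and 1.97%, against 1.14% and 0.806%, and 0.65 ± 0.33 (SE) relative to exon reads. That value was 0.98 without wogonin 3 and 0.29 without wogonin 4. Intron reads of SRSF3 were lower in number in both wogonin libraries.

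TRA2A and SRSF4, with 23746 and 31034 bases outside listed exons, had the highest intron shares of the 10 genes, and wogonin 3 stood well above wogonin 4 in both. TRA2A had 288 intron reads in wogonin 3 and 121 in wogonin 4, against 124 and 135 in DMSO 1 and 2. That is 29.2% of its reads in wogonin 3 (95% Wilson interval 26.4 to 32.1%) and 13.7% in wogonin 4 (11.6 to 16.1%), against 10.3% (8.68 to 12.1%) and 10.1% (8.61 to 11.8%) in the DMSO libraries. The log2 fold change relative to exon reads was 0.80 ± 0.29 (SE), 0.41 without wogonin 3 and 1.12 without wogonin 4. SRSF4 had 288 and 152 intron reads in the wogonin libraries, against 139 and 136 in the DMSO libraries, with shares of 17.4% (15.7 to 19.3%) and 9.97% (8.56 to 11.6%), against 9.03% (7.70 to 10.6%) and 8.72% (7.42 to 10.2%). Its value relative to exon reads was 0.27 ± 0.25 (SE) and 0.11 without wogonin 3. The part of the library-wide intron share of wogonin 3 in the values of these genes was not tested.

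TRA2B went the other way between the treated libraries, with 38 intron reads in wogonin 3 and 64 in wogonin 4, against 40 and 47 in DMSO 1 and 2. Its value relative to exon reads, with intron counts scaled within intron reads, was 0.41 ± 0.37 (SE). That value was 0.99 without wogonin 3 and -0.30 without wogonin 4, so on this scale the direction rested on wogonin 4. The unscaled intron share of TRA2B was 2.53% and 3.87% in wogonin 3 and 4, against 1.77% and 1.99% in DMSO 1 and 2. SRSF10 had 79 and 68 intron reads in the wogonin libraries, against 46 and 58 in the DMSO libraries, and 0.33 ± 0.29 (SE) relative to exon reads, which was 0.15 without wogonin 4. SRSF1 had 8 intron reads in each wogonin library, against 12 and 8 in the DMSO libraries, and SRSF5 had 8 and 6, against 6 and 8. SRSF2 had 0 intron reads in both wogonin libraries, against 1 and 0 in the DMSO libraries, and a count of 0 allows a share of up to 0.171% in wogonin 3 and 0.158% in wogonin 4. These 3 genes did not pass the filter and got no fold change. SRSF1 and SRSF2 have 647 and 243 bases outside listed exons, so few intron reads could fall there, whereas SRSF5 has 39749.

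**Figure D3:**
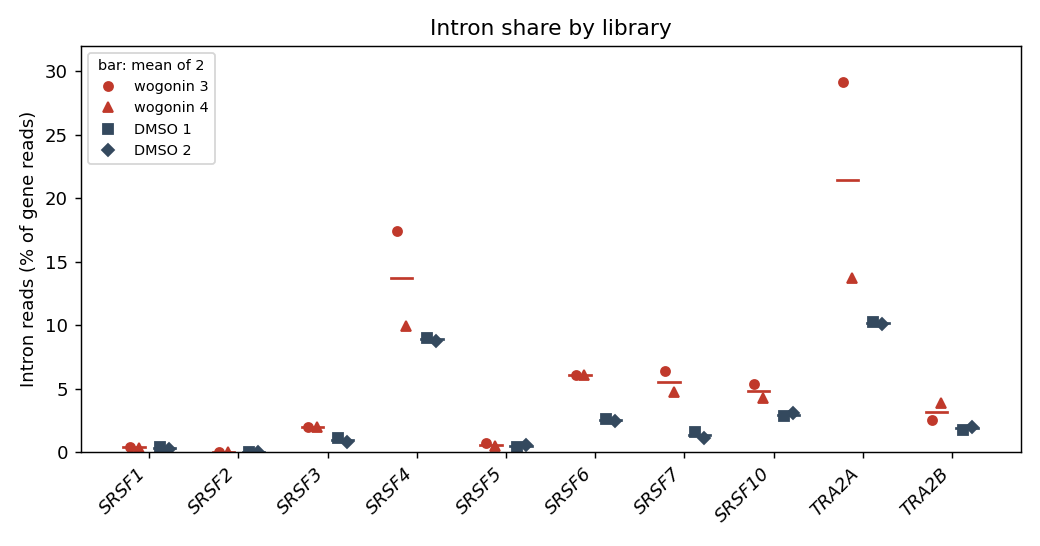
Intron reads as a percent of all reads of the gene (vertical axis) in wogonin 3 and 4 (red) and DMSO 1 and 2 (dark), with a bar at the mean of 2. SRSF6 and SRSF7 lie near 6% and between 4.74% and 6.39% in the wogonin libraries, above the DMSO libraries, and the high points of TRA2A (29.2%) and SRSF4 (17.4%) are both wogonin 3.

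In the 7 genes with enough intron reads, the intron share was higher in both wogonin libraries than in both DMSO libraries in 7, against 42.5% of the 9466 genes with a share in every library (10.3% lower, 52.9% either way). Intron and exon reads were used in choosing the genes, so nothing is read from this count. The median share over 9895 genes with a mean of at least 100 exon reads was 5.98% in wogonin 3 and 3.82% in wogonin 4, against 3.62% and 3.57% in DMSO 1 and 2. Over the 10 genes together introns took 6.08% and 3.84% of reads in wogonin 3 and 4, against 2.26% and 2.13%. In intron reads alone, none of the 7 genes lay past the threshold on either side, against 11.3% higher and 8.82% lower of all 10495 genes (20.1% either way). Their log2 fold changes ran from -0.72 in SRSF3 to 0.58 in SRSF7, with a median of 0.29, and of these SRSF4 and SRSF7 were higher and SRSF3 lower without overlap, against 32.2% and 28.8% of all genes (61% either way). Without wogonin 3 the value of SRSF6 was 0.85. Without wogonin 4 the values were 0.44 in SRSF4, 0.53 in TRA2A, -1.10 in SRSF3 and -0.82 in TRA2B. Each such fit rests on a single wogonin library, so its spread comes from the DMSO libraries alone and its calls are not given. The direction turned without wogonin 3 for TRA2A (-0.09) and TRA2B (0.56), without DMSO 2 for TRA2B (0.09) and without wogonin 4 for SRSF6 (-0.03) and SRSF10 (-0.02). With exon totals as the scale TRA2B was at 0.39, against -0.0046 with intron scaling, and the median of all genes moved to 0.53 from 0.05. Power was low: in counts simulated for this comparison on 10495 genes, 17.4% of genes changed by 1 log2 unit were recovered, against 88.4% in the simulation for exon reads on 13449 genes.

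**Figure D4:**
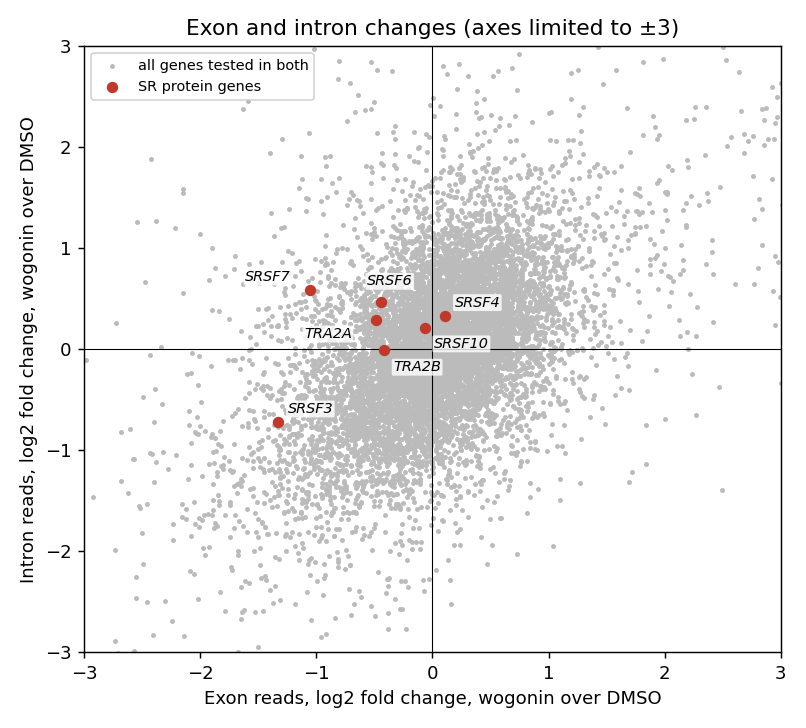
Log2 fold change, wogonin over DMSO, of exon reads (horizontal axis) and intron reads (vertical axis), each point a gene tested in both, with the 7 SR protein genes in red; 111 of 9475 genes lie beyond the axes. SRSF6, SRSF7, SRSF10 and TRA2A lie left of 0 in exon reads and above 0 in intron reads, SRSF3 is below 0 on both axes, TRA2B is at -0.42 and -0.0046, and SRSF4 is above 0 on both.

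Among all 9475 genes tested in both kinds of read, 16.1% had an exon value below 0 and an intron value above 0, as did 4 of the 7 SR genes (SRSF6, SRSF7, SRSF10 and TRA2A). Both values were used in choosing the SR genes, so nothing is read from this count. SRSF10 was at -0.07 in exon reads, and the intron signs of SRSF6, SRSF10 and TRA2A turned when a wogonin library was left out. Of 1225 other genes with at least 100 mean exon and intron reads, 5 were picked as nearest to the medians of the 7 SR genes in these changes. Those medians, taken apart for each kind of read, were -0.44 in exon reads and 0.29 in intron reads. The 5 genes were SFPQ, FBXO11, ZNF195, PRPF40B and TTC5. SRSF3, SRSF6, SRSF7, SRSF10 and TRA2B themselves had fewer than 100 intron reads in every library. Likeness was the distance between log2 fold changes over 4 libraries. These 5 genes were found by their values, which are given as a description with no test. SFPQ, a splicing and paraspeckle protein gene, had -0.42 in exon reads and 0.26 in intron reads. FBXO11, a subunit of a ubiquitin ligase, had -0.39 and 0.29, PRPF40B, a splicing factor gene, had -0.49 and 0.34, ZNF195 had -0.38 and 0.25, and TTC5 had -0.43 and 0.20.

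Exon reads that were not uniquely placed were most frequent in SRSF1 and SRSF2. Uniquely placed reads made up 16.8% and 16.3% of SRSF2 exon reads in wogonin 3 and 4, against 17.3% and 18.4% in DMSO 1 and 2, and in each library every uniquely placed exon read of SRSF2 was an exon-exon read (294 and 308, against 479 and 488). The files place MFSD11, a transporter family gene, on the opposite strand over SRSF2 (chromosome 17, 74731947 to 74777531). MFSD11 had 447 and 534 exon reads in the wogonin libraries, against 220 and 236 in the DMSO libraries, and so rose, with a log2 value of 1.26 (SE 0.11, adjusted p = 4.7e-08 by edgeR). Of these MFSD11 reads, 359 and 432 were uniquely placed in wogonin 3 and 4, against 182 and 188 in DMSO 1 and 2. MFSD11 covers only part of SRSF2. RP11-318A15.7, listed from 74729060 to 74734604 and so over the whole of SRSF2, and MIR636 had 0 exon reads in all 4 libraries. Why most exon reads of SRSF2 were not uniquely placed was not tested. The strand setting of the counts is not given in the sources used here, so reads that fall where SRSF2 and MFSD11 overlap may belong to either gene. The log2 fold change of SRSF2 was -0.53 in its uniquely placed exon reads.

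SRSF1 had 33.7% and 31.5% uniquely placed exon reads in the wogonin libraries, against 36.0% and 30.1% in the DMSO libraries. RP11-159D12.5, listed on the same strand, overlaps its 3' part and had 36 and 12 exon reads in the wogonin libraries, against 11 and 6 in the DMSO libraries. The log2 fold change of SRSF1 was -0.35 in uniquely placed exon reads. In the other 8 genes between 99.1% and 100% of exon reads were uniquely placed in each library, and the files list an overlapping gene for SRSF4 alone among them, RP11-242O24.5, which had 0 exon reads in all 4.

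The genes have annotated transcript classes that the counts do not resolve. In GENCODE release 29, matched by gene ID, all 10 have at least 1 transcript classed as a target of nonsense-mediated decay, against 46.5% of 9673 protein-coding genes with a mean of at least 100 exon reads. SRSF7 has 6 such transcripts of 12, SRSF1 has 3 of 9, and SRSF5, SRSF6, TRA2A and TRA2B have 1 each. Transcripts classed as retained introns are listed for 9 of the 10, all but SRSF6, against 61.2%, with a median of 4 a gene against 1. The SR genes also have more transcripts listed of any class, with a median of 11.5 against 8. The SR genes were also highly expressed, between percentile 71.1 (SRSF10) and 96.0 (SRSF2) of genes with a mean of at least 1 TPM. Exon reads in the deposited tables sum over coding and decay-target transcripts, so a difference between these classes was not measured.

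Other splicing genes did not share one direction. The 3 other SR family genes matched, SRSF9, SRSF11 and SRSF12, all rose in exon reads, by 0.22, 0.18 and 0.42 on the log2 scale (edgeR adjusted p = 0.0055, 0.017 and 0.036), against 32.3% of all genes called higher, and with library totals alone 0 of the 3 passed. SRSF9 stood at 225 and 211 CPM (TMM-scaled) in wogonin 3 and 4, against 193 and 182 CPM in DMSO 1 and 2. These calls were fragile to the libraries as well, since 1 of the 3 was called without DMSO 1, without DMSO 2, without wogonin 3 and by DESeq2.

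Of 28 genes of SR-related proteins, which carry arginine-serine stretches without being classical SR proteins, 8 rose, 3 fell and 17 did not pass, with a median of 0.03 (with library totals alone 8 rose and 7 fell). That is 28.6% higher and 10.7% lower, against 32.3% and 31.5% of all genes. RBM25, a regulator of splice site choice, rose by 0.46 on the log2 scale (edgeR adjusted p = 4.7e-06), as did the speckle protein genes THRAP3 (0.37, edgeR adjusted p = 1.5e-05) and RNPS1 (0.37, edgeR adjusted p = 1.9e-05). Of 11 genes that phosphorylate, dephosphorylate or import SR proteins, 4 rose and 3 fell (3 and 3 with library totals alone), or 36.4% and 27.3%, against 32.3% and 31.5% of all genes. The kinase genes CLK3 and CLK2 rose by 0.76 and 0.49 (edgeR adjusted p = 2.7e-07 and 2.2e-05), and TNPO3, the importin that carries phosphorylated SR proteins into the nucleus, fell by 0.49 on the log2 scale (edgeR adjusted p = 1.3e-05).

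Nonsense-mediated decay factors had 7 of 19 higher and 3 lower, with a median of 0.06 (6 and 5 with library totals alone), or 36.8% and 15.8%, against 32.3% and 31.5% of all genes. The exon junction genes CASC3 and MAGOH differed in direction, with -0.72 and 0.61 (edgeR adjusted p = 2.1e-07 and 3.8e-06), and SMG5 rose by 0.50 (edgeR adjusted p = 2.5e-06). In the core spliceosome 19 of 42 rose and 8 fell, with a median of 0.16, but 14 rose and 15 fell with library totals alone. The first counts are 45.2% and 19%, against 32.3% and 31.5% of all genes. The helicase genes DDX46 and DHX8 fell, with -1.88 and -1.15 on the log2 scale (edgeR adjusted p = 9.5e-12 and 1.7e-08), and SF3B4 rose by 0.74 (edgeR adjusted p = 4.9e-08).

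The hnRNP genes, whose proteins often oppose SR proteins at splice sites, had the lowest median of the other lists. It was -0.20, against -0.42 for the SR genes. This list, too, was chosen with earlier results of these data known. In exon reads 17 of 25 were lower and 4 higher (19 and 4 with library totals alone). That is 68% and 16%, against 31.5% and 32.3% of all genes. The 3 with the smallest adjusted p all fell, with log2 values of -2.32 in HNRNPA3 (edgeR adjusted p = 9.3e-14), -1.93 in HNRNPD (edgeR adjusted p = 1.2e-12) and -1.58 in HNRNPA2B1 (edgeR adjusted p = 2.4e-12). The 4 that rose, named after their values were seen, were HNRNPC (0.58), HNRNPF (0.48), SYNCRIP (0.35) and HNRNPH2 (0.28 on the log2 scale). Relative to exon reads, intron reads were called higher in 10 of 22 hnRNP genes, against 6.42% of all genes, with a median of 1.03, against 0.65 over the 7 SR genes. The difference between the lists was not tested.

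**Figure D5:**
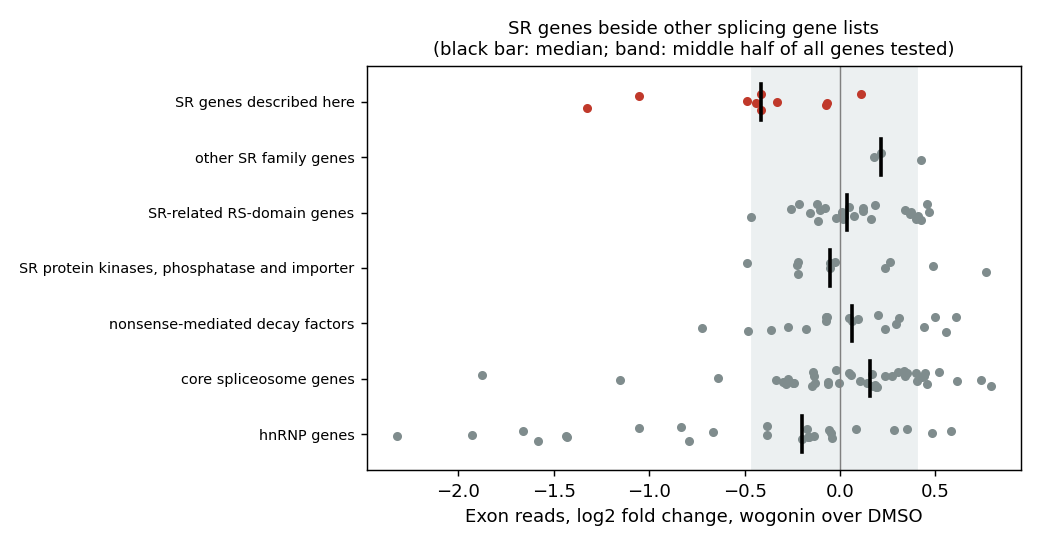
Log2 fold change of exon reads, wogonin over DMSO (horizontal axis), for the 10 SR genes described here (red) and the tested members of the other splicing lists (grey), with a black bar at each median. The shaded band runs from -0.46 to 0.40, the lower and upper quartiles of all 13449 genes, and SRSF3 and SRSF7 lie left of it at -1.33 and -1.05.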

How the data were processed

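The members and all gene lists were chosen with earlier results of these data known. Libraries were prepared from RNeasy-extracted RNA using a SMARTER mRNA kit, per the labels' protocols. The submitters' processing notes name the builds GRCh37 and hg19. Which aligner, counter and annotation release were used, and whether strand was, is not given in the sources used here. For each library, the authors deposited a table with total and uniquely placed read counts for exons, introns and exon-exon junctions, per the file headers. Levels are the authors' deposited TPM; the RPKM and fraction columns they deposited were not used. In all 57773 genes exon and intron counts added up to gene counts, and 20986 genes with no listed exons were left out of the tests.

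Under R 4.3.3, edgeR 4.0.16 gave the count tests: low counts removed by filterByExpr, TMM factors, a robust quasi-likelihood model of treatment, and Benjamini-Hochberg adjustment across every gene tested. Intron against exon reads, and exon-exon against other exon reads, were tested as an interaction of read class and treatment with library as a block. No library was a copy of another, with a chi-square per degree of freedom of 6.77 between the wogonin libraries and 2.86 between the DMSO libraries. With 2 libraries a group, exact permutation could not reach 0.05 and was not used. Wilson intervals are 95% and, like limits from 3 reads, cover counting error only. Named genes were the members, the 3 genes of each other list with the smallest adjusted p in exon reads, overlapping genes and the 5 nearest genes. SRSF8, HNRPDL, HNRPLL and PECAM1 were not matched by name. Promoters are from RefSeq (GRCh38.p14), with 8 of 10 members matched by symbol, and the motifs were picked after the counts were seen. Alternatives were other scalings, filters, uniquely placed reads, a non-robust fit, DESeq2 1.42.0, limma-voom (limma 3.58.1) and leaving out each library. The tests were checked on simulated counts with 200 changed genes.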

Additional observations from a re-analysis of the deposited data

How the results depend on the processing

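No paired analysis was run because the labels do not state a pairing of libraries between the groups. Exon reads called 8577 genes, exon-exon reads 6265, intron reads 2113, intron relative to exon reads 1001 and exon-exon relative to other exon reads 441. Genes called in intron reads numbered 994 with DESeq2 and 1236 with exon read scaling, and in intron relative to exon reads 430 with exon read scaling, where the median of all genes moved to 0.43; the share of lower calls was then 6.74%, against 39.3%. Exon read scaling left 11.7% lower among calls in intron reads, against 43.8%. Leaving out 1 library gave between 653 and 4008 called genes in intron reads (653 without DMSO 1, 730 without DMSO 2, 3572 without wogonin 3 and 4008 without wogonin 4), and between 229 and 2742 in intron relative to exon reads (229 without DMSO 1, 245 without DMSO 2, 2249 without wogonin 3 and 2742 without wogonin 4). Each of these fits has a single library in 1 of the groups, so its spread comes from the other group alone. The cause of the differences in these counts was not tested. With library totals alone 2 SR genes (SRSF6 and SRSF7) were past the threshold on the higher side in intron relative to exon reads. SRSF5 alone was past it on the lower side in exon-exon relative to other exon reads, with library totals alone, with no filter and in uniquely placed reads. In exon reads library totals alone raised the share of lower calls to 57.6%, against 49.4%. Of 507 fold changes of single SR genes under an alternative, 451 moved by less than the spread between libraries, 56 by more, and 0 that were called changed sign. SRSF1, SRSF2 and SRSF5 had too few intron reads for a fold change.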
